A study of Mus musculus with 12 samples.

Results

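The liver of 1 mouse homozygous for eIF4E S209A was compared with the livers of 3 wild-type mice, using the RNA of a heavy and a light polysome pool from each animal. The S209A allele puts alanine in place of the serine of eIF4E that is phosphorylated. All were male C57BL/6 mice on chow, with no drug treatment named, and the labels give neither an age nor how the allele was made. These are 8 of the 12 libraries of the series, whose other 2 animals were wild type on a ketogenic diet and are not used here. Pools were made from sucrose gradient fractions 2 to 7 and 8 to 13, and the labels do not say which range is called heavy. Of 27179 gene identifiers, 9131 had at least 10 counts in at least 3 of the 8 libraries and were compared. With 1 S209A animal no spread can be measured for that genotype, so values are descriptions, without a p-value. A gene is called past the fold where S209A was at least 2-fold above, or at least 2-fold below, each of the 3 wild-type animals.

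eIF4E binds the cap of an mRNA and, with the scaffold eIF4G and the helicase eIF4A, brings ribosomes to it. The kinases MNK1 and MNK2, which act downstream of ERK and p38, dock on eIF4G and phosphorylate that serine. The 4E-BP proteins, which mTORC1 phosphorylates, keep eIF4E from eIF4G. Alanine cannot be phosphorylated, so the S209A protein lacks this modification while keeping the cap-binding fold. In a sucrose gradient, mRNAs that carry more ribosomes sediment further, and the pool an mRNA is found in is read as a measure of its ribosome load.

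The heavy libraries held 3924075, 5184912 and 5988255 counts in wild-type animals 1, 2 and 3 and 4561098 in S209A. The light libraries held 8919071, 10553620 and 4116889 counts in the wild-type animals and 3341046 in S209A. Nuclear protein-coding genes took 6.53% and 8.16% of the light counts in wild-type animals 1 and 2, against 39.3% in animal 3 and 38% in S209A. Mitochondrial ribosomal RNA took 58.2% and 52.6% of the light counts in animals 1 and 2, 13.5% in animal 3 and 12.1% in S209A. The file headers name HISAT2 for wild-type animal 3 and S209A and Bowtie2 for the others, so animal 3 is shown separately throughout. Among identifiers with 1 to 10 counts, even numbers made up 66.4% to 74.6% in the libraries of animals 1 and 2, and 88.8% to 90.9% in those of animal 3 and S209A. Low counts may therefore not be separate fragments, and the cause was not tested. Known hepatocyte marker genes were measured in all 4 animals, and none of the 12 on the list was at 0 in any library.

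The heavy-over-light contrast of S209A ran opposite to that of wild-type animals 1 and 2. Across 3226 nuclear protein-coding genes with a mean of at least 50 counts, the log2 heavy-over-light values of S209A correlated at r = -0.40 with animal 1, -0.33 with animal 2 and 0.17 with animal 3. Animals 1 and 2 correlated with each other at 0.50, and animal 3 correlated with them at -0.08 and -0.07. These are correlations across genes, which are not independent replicates, and genes share the library scaling. Of 628 such genes that were higher in the heavy pool of all 3 wild-type animals, 448 (71.3%) were higher in the light pool of S209A. Of 422 that were higher in the light pool of all 3 wild-type animals, 282 (66.8%) were higher in the heavy pool of S209A. The ratio also varied with the genomic span of a gene across these 3226 genes. The Spearman correlation with span was -0.43, -0.38 and 0.02 in wild-type animals 1, 2 and 3 and 0.32 in S209A. The part of span in the list results was not tested. The S209A light library correlated at 0.74 and 0.79 with the heavy libraries of animals 1 and 2, and at 0.55 and 0.71 with their light libraries. With animal 3 it correlated at 0.81 for heavy and 0.85 for light. The S209A heavy library correlated at 0.72, 0.78 and 0.89 with the heavy libraries of animals 1, 2 and 3, and at 0.65, 0.78 and 0.89 with their light libraries. A difference of ribosome load and a difference in what the tubes hold cannot be told apart with 1 animal, so values with the S209A pools exchanged are given for the main lists and several genes. That exchange was chosen after seeing the data.

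**Figure D1:**
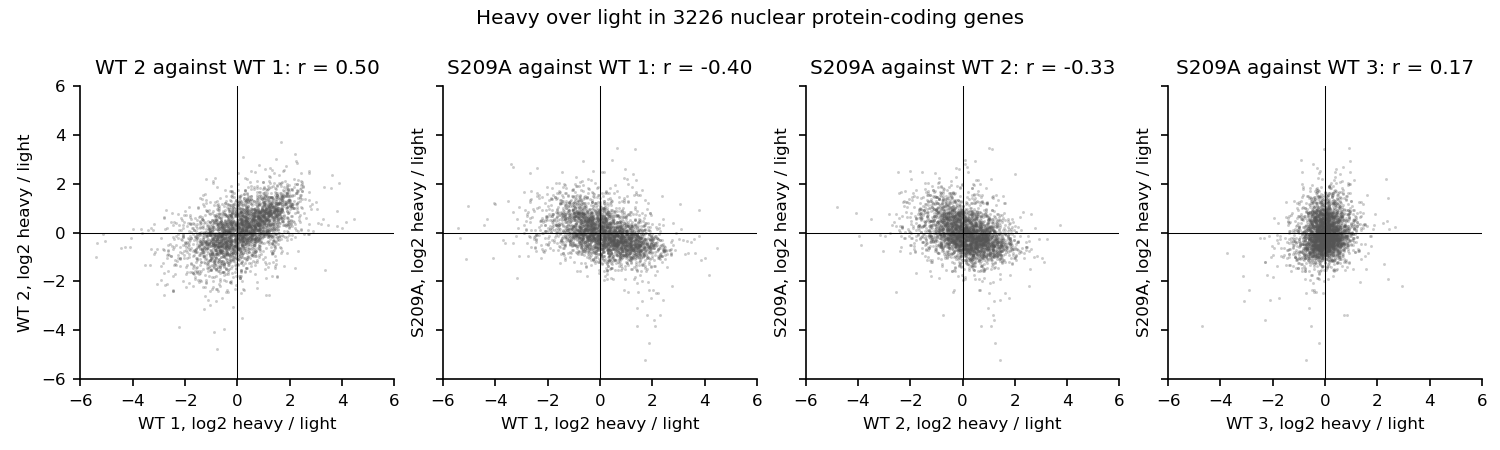
Log2 heavy over light of pairs of animals, with 1 point per nuclear protein-coding gene with a mean of at least 50 counts (3226 genes). The first panel sets wild-type animal 1 (horizontal axis) against wild-type animal 2 (vertical axis, r = 0.5). The other panels set each wild-type animal (horizontal axis) against S209A (vertical axis). The cloud of S209A slopes downward for wild-type animals 1 and 2 (r = -0.40 and -0.33) and slightly upward for animal 3 (r = 0.17).

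In the heavy pool 170 genes were past the fold higher in S209A (1.86% of those compared) and 263 lower (2.88%). In the light pool 332 were higher (3.64%) and 909 lower (9.96%). In the heavy-over-light ratio 982 were higher (10.8%) and 496 lower (5.43%). With no minimum size, S209A lay above all 3 wild-type animals for 22.2% of genes and below them for 18.5% in the heavy pool. The same shares were 28.3% and 31.3% in the light pool, and 30.3% and 25.6% in the ratio. The wild-type animals themselves differed widely, with at least a 2-fold range for 68.7% of genes in the heavy pool, 58.5% in the light pool and 74.8% in the ratio. Scaling to nuclear protein-coding counts moved the median of all genes, S209A minus the wild-type mean, to 0.21 in the heavy pool, -0.5 in the light pool and 0.64 in the ratio on the log2 scale. Under that scaling 6.28% of light-pool calls were higher, against 26.8% in the main scaling, and 88.8% of ratio calls, against 66.4%. With the S209A pools exchanged, 761 of the 9131 genes were past the fold in the heavy pool, 571 in the light pool and 955 in the ratio. These totals cover both directions. List counts with the pools exchanged are therefore given below without an all-gene share for 1 direction, and are not read against the unexchanged shares.

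Eif4e itself (chr3:138526191-138559696, GRCm38.p6) was thinly counted. Its heavy libraries held 0, 2 and 59 counts in wild-type animals 1, 2 and 3 and 18 in S209A, and its light libraries 15, 0 and 21 counts in the wild type and 42 in S209A. The groups overlapped in the heavy pool, and a change of 1 residue leaves the transcript counted, so these values do not check the genotype. Eif4g1, the scaffold that both eIF4E and the MNK kinases bind, was well measured and lay inside the wild-type range. Its heavy level was 85.9, 103 and 104 CPM (TMM-scaled counts-per-million) in the wild type and 95.5 in S209A, and its light level 79.5, 127 and 107 CPM against 103 in S209A. Of 19 genes of the cap-binding complex and its partners, 18 were measured. None was past the fold in the heavy pool, where 1.86% of all genes were higher and 2.88% lower. In the light pool Eif4enif1, which encodes the eIF4E transporter 4E-T, was the single gene past the fold, against 9.96% of all genes that were lower. Both counts are near the background or below it. No gene of the list was past the fold in either pool with the S209A pools exchanged. Its light level was 9.29, 15.3 and 9.28 CPM in the wild type and 3.38 in S209A, from 18 counts. Eif4ebp1, which encodes the inhibitor 4E-BP1, had a log2 heavy-over-light value of 2.79, 1.1 and 0.73 in the wild type and -0.5 in S209A.

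Of 27 genes of MNK, ERK, p38 and mTORC1 signalling, 25 were measured. Mapk3, which encodes ERK1, was past the fold higher in the heavy pool, at 68.2, 84.4 and 42.3 CPM in the wild type and 172 in S209A. Its light level was 478, 494 and 39.9 CPM in the wild type and 103 in S209A, so S209A lay between animal 3 and the other two. Mknk1, which encodes MNK1, was at 11.4, 11.9 and 10.1 CPM in the wild-type heavy pools and 19 in S209A, and at 41.8, 50.6 and 12.3 CPM in the light pools against 7.13 in S209A. Its heavy-over-light value was -1.84, -2.06 and -0.27 in the wild type and 1.37 in S209A, above all 3. After exchanging the S209A pools it was -1.37 and inside the wild-type range. Mknk2, which encodes MNK2, stayed inside the wild-type range in both pools. Dusp6, an ERK phosphatase, was past the fold lower in the heavy pool, at 5.9, 8.06 and 6.76 CPM in the wild type and 2.69 in S209A. Dusp1, which encodes a phosphatase of p38 and JNK, was at 4.65, 5.04 and 11.5 CPM in the wild-type light pools and 1.13 in S209A, from 6 counts. Tsc1 and Braf were also past the fold lower in the light pool. The list had 4 of 25 genes past the fold lower there, against 9.96% of all genes. With the S209A pools exchanged 1 of 25 was, and Dusp1 was no longer past the fold there, at 0.07 above the nearest animal, but was past it lower in the heavy pool, at -1.7.

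Among 24 mRNAs published as sensitive to eIF4E phosphorylation, 14 were measured. None was past the fold in the heavy pool, where 1.86% of all genes were higher and 2.88% lower. In the light pool 2 of 14 were past the fold lower and none higher, against 9.96% and 3.64% of all genes. Vegfa, which encodes an angiogenic growth factor, was the best measured of those past the fold. It was at 77.8, 57.2 and 100 CPM in the wild-type heavy pools and 98.8 in S209A, and at 137, 116 and 113 CPM in the light pools against 49.9 in S209A. Its heavy-over-light value was therefore -0.82, -1.02 and -0.17 in the wild type and 0.98 in S209A. After exchanging the pools the S209A value was -0.98, inside the wild-type range. Nfkbia, which encodes the NF-kappaB inhibitor IkappaB-alpha, had ratio values of 0.07, -0.09 and 0.13 in the wild type and -1.29 in S209A. Ccnd1, which encodes cyclin D1, was at 0.54, -0.76 and 0.67 in the wild type and -2.03 in S209A, with 5 heavy counts in S209A. The list thus had 2 of 14 members past the fold higher and 2 lower in the ratio, against 10.8% and 5.43% of all genes. Its median relative to all genes differed from the wild-type animals by 0.27, 0.08 and 0.09. With the S209A pools exchanged, Nfkbia and Ccnd1 were instead past the fold higher in the ratio, at 1.17 and 1.37 above the nearest animal. The direction of both therefore depends on which S209A tube is heavy.

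**Figure D2:**
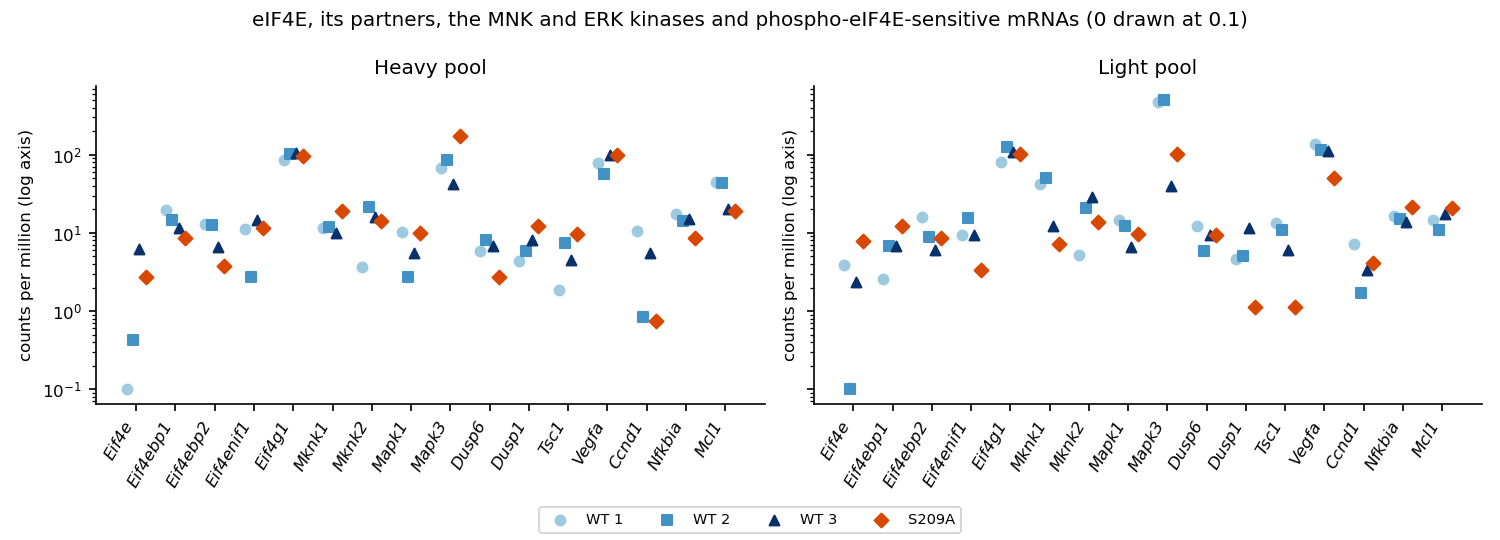
Genes of the eIF4E and MNK pathway and phospho-eIF4E-sensitive mRNAs in each library, in CPM on a log axis with 0 drawn at 0.1, with 1 symbol per animal and the heavy and light pools in separate panels. Eif4g1 lies within the wild-type spread in both panels, while the S209A point for Mapk3 is highest in the heavy pool (172) and that for Vegfa lowest in the light pool (49.9).

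Heat shock chaperone mRNAs, which encode proteins that refold other proteins, were lower in S209A in the heavy-over-light ratio. Of 20 listed genes 19 were measured. In the heavy pool 4 were past the fold lower, against 2.88% of all genes, while 8 lay within the wild-type range and 1 above it, and the list was not apart there. In the ratio 9 were past the fold lower and 17 lay below all 3 wild-type animals, against 5.43% and 25.6%. The promoter stretches of 3 of these genes are shown because heat shock genes are controlled through a shared element, which pairs GAA and TTC blocks. The stretches are the 150 bases before the transcription start in RefSeq on GRCm38.p6, all on the minus strand, with a match to GAANNTTC or TTCNNGAA in capitals. Each of these motifs reads the same on both strands.
Hspa1b: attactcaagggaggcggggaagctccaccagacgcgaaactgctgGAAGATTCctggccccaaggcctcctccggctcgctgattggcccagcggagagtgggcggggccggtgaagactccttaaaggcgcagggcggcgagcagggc
Hspa1a: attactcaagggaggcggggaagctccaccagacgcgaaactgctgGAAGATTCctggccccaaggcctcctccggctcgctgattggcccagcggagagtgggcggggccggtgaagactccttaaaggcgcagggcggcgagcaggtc
Hsph1: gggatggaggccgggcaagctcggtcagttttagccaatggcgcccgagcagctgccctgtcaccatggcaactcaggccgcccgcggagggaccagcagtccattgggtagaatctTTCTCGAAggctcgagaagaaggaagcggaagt
They lie at chr17:34959239-34959388, chr17:34972157-34972306 and chr5:149636337-149636486. The 250-base windows of Hspa1a and Hspa1b were identical at 247 bases, and the coding copies are also near-identical, so their reads may be split between them. Of the 14 measured heat shock genes in the promoter table, 7 held a match within 250 bases, against 14.5% of 27025 genes in the table. A match is a description of the letters and does not show binding.

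Hspa1b, which encodes an inducible HSP70, was at 48, 20.4 and 33.5 CPM in the wild-type heavy pools and 0.897 in S209A, where it had 6 counts. In the light pools it was at 12.9, 8.4 and 39 CPM in the wild type and 28.5 in S209A. S209A was thus far below all 3 animals in the heavy pool and between them in the light pool. Hspa1a, its near-identical neighbour, was at 23.2, 11.2 and 3.91 CPM in the wild-type heavy pools and 0.299 in S209A, from 2 counts. Hsph1, a co-chaperone of the HSP110 family, was at 24.3, 28.8 and 45.8 CPM in the wild-type heavy pools and 6.28 in S209A, while its light level of 24.8 CPM lay within 18.5 to 54.3. Bag3, which encodes an HSP70 co-chaperone, was at 20.3, 32.4 and 20.5 CPM in the wild-type heavy pools and 8.37 in S209A. Hspa8, the constitutive HSP70, was past the fold only in the ratio, at 1.34, 1.09 and 0.71 in the wild type and -1.09 in S209A. For the list as a whole the median ratio, relative to all genes, was 1.52, 0.88 and 0.12 in the wild type and -1 in S209A. With the S209A pools exchanged, the ratio of Hspa1b was 2.67 log2 above the nearest wild-type animal, and 4 of 19 genes were past the fold higher in the ratio, so the direction depends on which S209A tube is heavy.

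Acute phase mRNAs, which encode plasma proteins of the inflammatory response, were higher in the light pool of S209A. Of 24 listed genes 21 were measured, 5 were past the fold higher in the light pool and 14 lay above all 3 wild-type animals, against 3.64% and 28.3% of all genes. In the ratio 10 of 21 were past the fold lower, against 5.43% of all genes. The light-pool shift was not particular to acute phase genes. Secreted plasma proteins were also apart higher there, with 37 of 54 above all 3 animals. So were the antioxidant, bile acid and histone lists. Saa1, which encodes serum amyloid A1, was at 30.7, 1.26 and 2.94 CPM in the wild-type light pools and 166 in S209A. Its heavy level was 207, 8.9 and 25.2 CPM in the wild type and 36.3 in S209A, inside a wide wild-type range. Its ratio was closely alike in the wild type, at 2.74, 2.53 and 2.96, and -2.18 in S209A. Saa2 was at 11.6, 2.73 and 1.7 CPM in the wild-type light pools and 34.5 in S209A. Orm1, which encodes orosomucoid, was at 30.2, 27.9 and 28.2 CPM in the wild-type light pools and 100 in S209A, and stayed past the fold with the pools exchanged, at 1.02 above the nearest animal. Fgl1, which encodes a secreted fibrinogen-like protein, was at 320, 80.1 and 258 CPM in the wild-type heavy pools and 49 in S209A, and at 90.3, 35.9 and 103 CPM in the light pools against 199 in S209A. Lrg1, a leucine-rich plasma glycoprotein, had ratios of 1.48, 1.32 and 1.66 in the wild type and -0.85 in S209A. Once the pools were exchanged the list was no longer apart, with 3 of 21 past the fold higher in the light pool and 3 lower in the ratio. Saa1 was then 0.24 above the nearest animal in the light pool, Saa2 lay inside the wild-type range there, and the ratios of Fgl1 and Saa2 lay above all 3 animals, by 0.19 and 1.08. Kupffer cell markers moved with this list: the summed level of 15 such genes was 99.9, 58.6 and 116 CPM in the wild-type light pools and 183 in S209A, against 175, 82 and 167 CPM in the heavy pools and 140 in S209A. None of the Kupffer markers was at 0 in either S209A library. A different number of cells of a type and a different amount of RNA per cell cannot be told apart in whole liver. The part of Kupffer cells in the acute phase values was not tested.

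**Figure D3:**
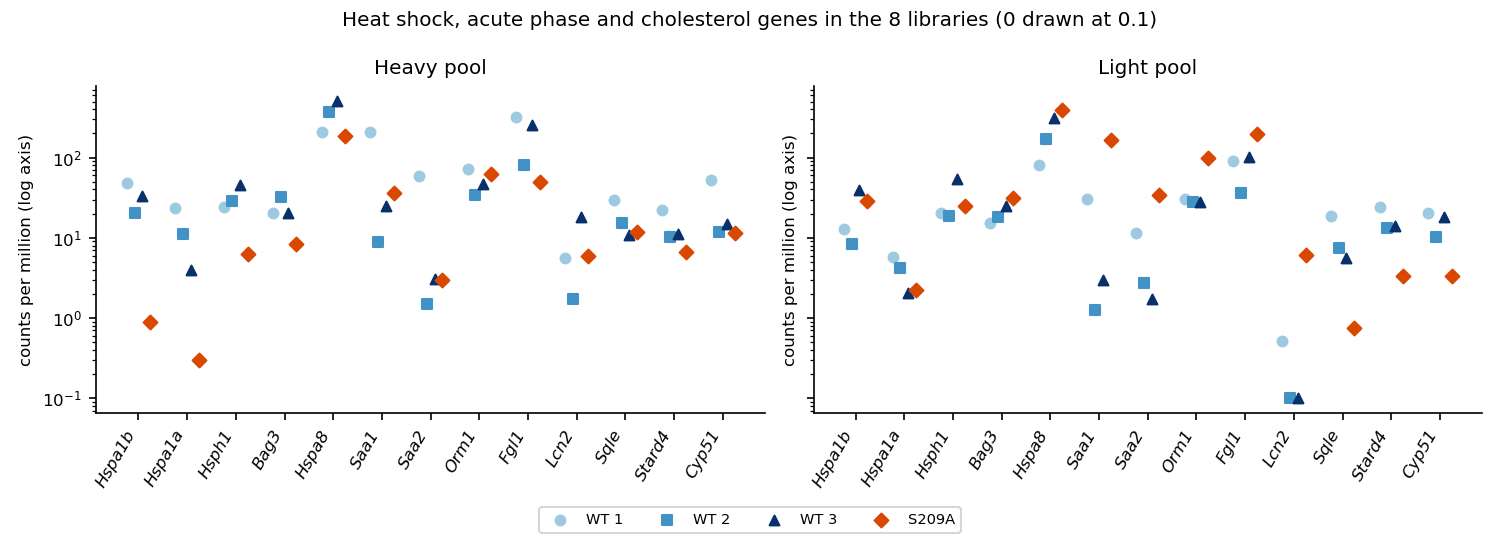
Heat shock, acute phase and cholesterol genes in each library, in CPM on a log axis with 0 drawn at 0.1, with 1 symbol per animal and 1 panel per pool. The S209A points for Hspa1b (0.897) and Hsph1 (6.28) lie below all wild-type points in the heavy panel, and those for Saa1 (166) and Orm1 (100) lie above them in the light panel.

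Genes of cholesterol synthesis and SREBP2 targets, which supply and take up sterols, were lower in the light pool of S209A. Of 26 listed genes 25 were measured, 9 were past the fold lower and 19 lay below all 3 wild-type animals, against 9.96% and 31.3% of all genes. Sqle, which encodes squalene epoxidase, was at 18.6, 7.35 and 5.54 CPM in the wild-type light pools and 0.751 in S209A, from 4 counts. Fdps, which encodes farnesyl diphosphate synthase, was at 21.7, 3.36 and 28.5 CPM in the wild type and 1.88 in S209A, and was not past the fold because animal 2 was also low. In the heavy pool none of the 25 was past the fold, where 1.86% of all genes were higher and 2.88% lower. In that pool 11 of 25 lay below all 3 wild-type animals and 2 above, against 18.5% and 22.2% of all genes. Sqle there was at 29.5, 15.1 and 10.9 CPM in the wild type and 11.7 in S209A. The list's median in the light pool lay below the wild-type animals by 1.48, 0.63 and 1.05 log2 after subtracting the median of all genes, and with the pools exchanged it was no longer apart there. In the heavy pool 13 of 25 were then past the fold lower, and the list's median was at -1.33 log2 to the nearest animal. The share of all genes lower in the heavy pool after the exchange is not given here.

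Genes of amino acid catabolism, the respiratory chain and the cytosolic ribosome were higher in the light pool of S209A, while gluconeogenesis, lipogenesis and beta-oxidation were not apart as lists. Gluconeogenesis had 3 of 19 genes past the fold lower and none higher there, and lipogenesis 4 of 22 lower and none higher. The share lower over all genes was 9.96%. Beta-oxidation had 0 of 18 past the fold, but 15 of 18 lay above all 3 wild-type animals, against 28.3% of all genes. Its median lay 2.72, 0.95 and 0.36 log2 above animals 1, 2 and 3, so only animal 3 was nearer than 0.5. Of 36 genes of amino acid catabolism and the urea cycle, all measured, 8 were past the fold higher and 33 lay above all 3 wild-type animals, against 3.64% and 28.3% of all genes. Bhmt, which encodes betaine-homocysteine methyltransferase, was past the fold in both pools. It was at 378, 1540 and 1220 CPM in the wild-type heavy pools and 3640 in S209A, and at 144, 852 and 323 CPM in the light pools against 2160 in S209A. Cps1, the first enzyme of the urea cycle, was at 776, 1630 and 1690 CPM in the wild-type light pools and 2490 in S209A, above all 3 by less than 2-fold. Of 79 measured nuclear-encoded respiratory chain subunits, 10 were past the fold higher in the light pool and 67 lay above all 3 animals. Of 77 measured cytosolic ribosomal protein genes, 20 were past the fold higher in the light pool and 59 lay above all 3. The ribosomal protein median lay 2.55 and 2.4 log2 above wild-type animals 1 and 2 and 0.73 above animal 3, so most of its distance from the first 2 was shared with animal 3. In the heavy pool the same list lay 2 and 2.1 above animals 1 and 2 and -0.33 from animal 3. With the S209A pools exchanged, amino acid catabolism (0.64) and ribosomal proteins (0.57) were still at least 0.5 log2 above the nearest animal in the light pool, and the respiratory chain was at 0.2. Hepatocyte markers moved with these lists in the light pool, with summed levels of 8580, 14400 and 9950 CPM in the wild type and 17700 in S209A. In the heavy pool the sum lay inside the wild-type range, at 19100, 20400 and 12300 CPM in the wild type and 15700 in S209A. Cps1 and Tat are in both the marker list and the amino acid list. The part of the markers in the result was not tested.

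**Figure D4:**
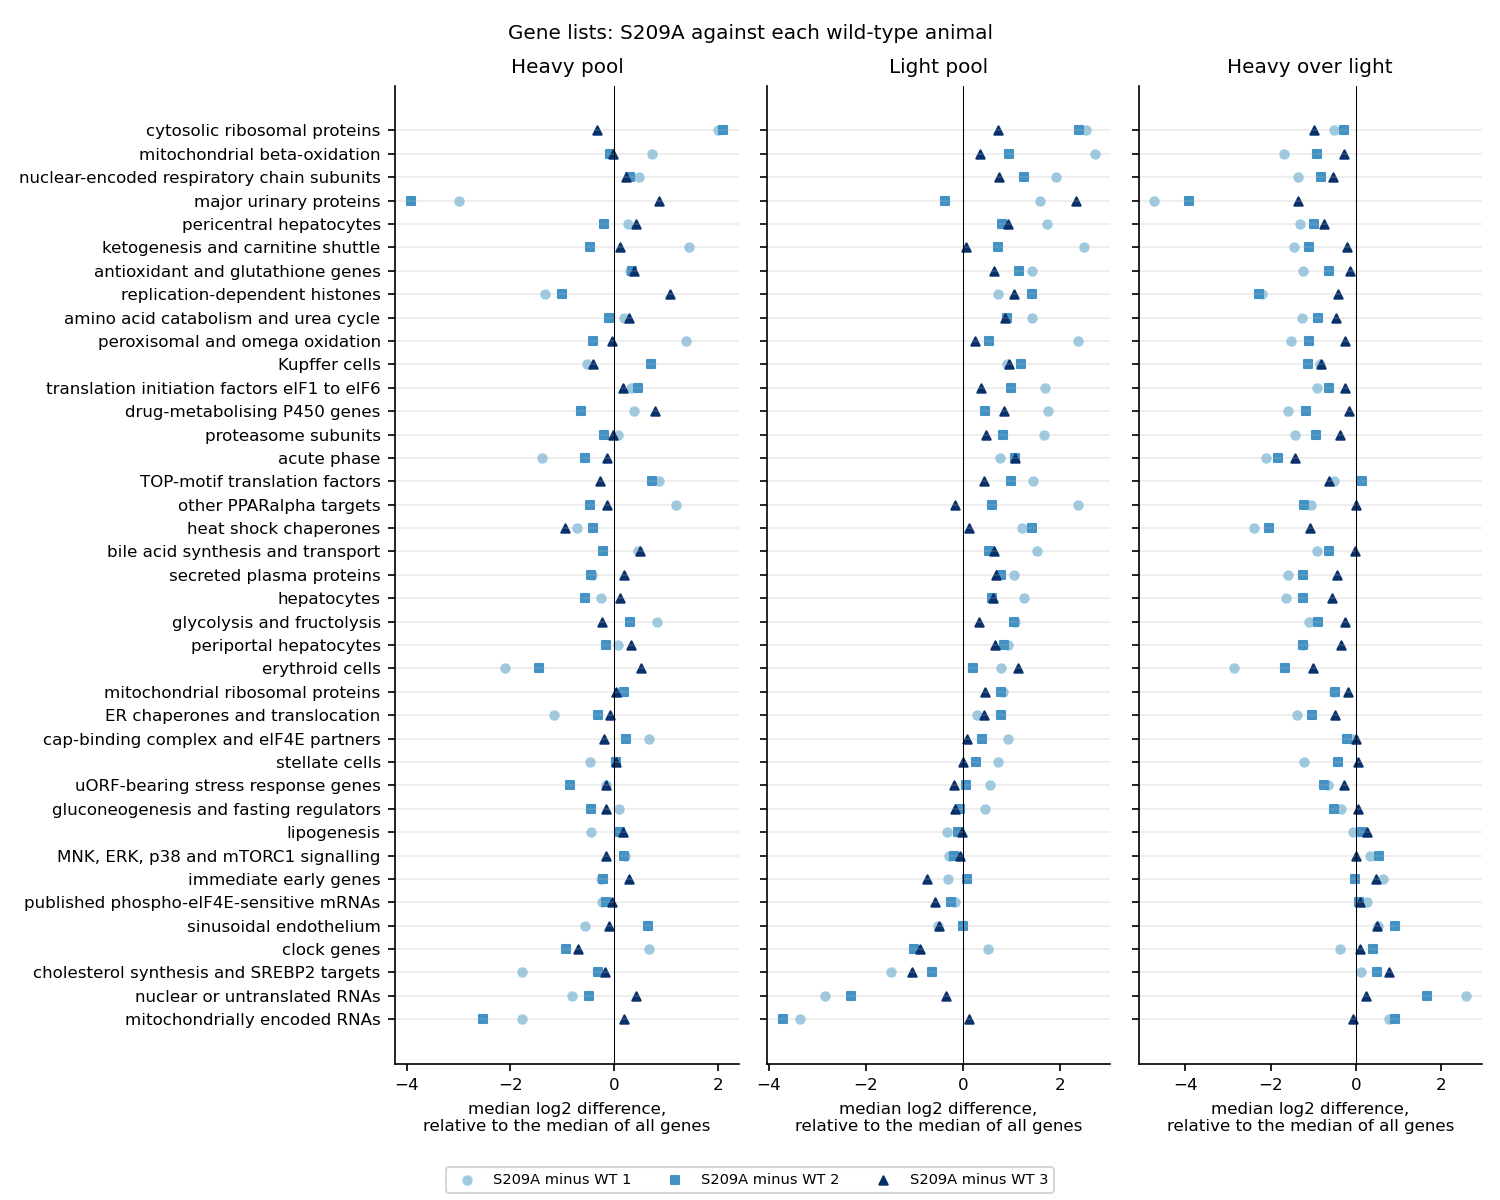
Median difference of each gene list between S209A and each wild-type animal, on the log2 scale relative to all genes, with 1 panel each for the heavy pool, the light pool and the heavy-over-light ratio and 1 symbol per wild-type animal. In the light panel the amino acid list lies to the right for every animal (1.43, 0.91 and 0.86) and the cholesterol list to the left (-1.48, -0.63 and -1.05). In the ratio panel the heat shock list lies to the left (-2.39, -2.03 and -1.08).

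Drug-metabolising P450 genes were not apart as a list. Of 28 measured, 2 were past the fold higher and 1 lower in the heavy pool, against 1.86% and 2.88% of all genes. In the light pool 3 were higher and 1 lower, against 3.64% and 9.96%. Single enzymes of drug metabolism stood far from the wild type in both directions. Cyp2a4, which has near-identical relatives, was at 8.11, 14.2 and 14.3 CPM in the wild-type heavy pools and 0.897 in S209A, and stayed past the fold lower with the pools exchanged, at -1.6. Gstm1, a glutathione S-transferase, was at 24.7, 15.9 and 73.9 CPM in the wild-type heavy pools and 198 in S209A, and at 37.7, 18.7 and 104 CPM in the light pools against 204 in S209A. Its level was nearly equal in the S209A pools, and it stayed past the fold in the heavy pool with the pools exchanged, at 1.46. Cyp1a2, a P450 of pericentral hepatocytes, was at 42.3, 39.7 and 70.8 CPM in the wild-type light pools and 271 in S209A. Cyp3a11, a P450 of drug clearance, was at 204, 370 and 407 CPM in the wild-type light pools and 1330 in S209A. Both stayed past the fold with the pools exchanged, at 1.33 and 1.07. Gstp1 was at 36.4, 33 and 92.8 CPM in the wild-type light pools and 309 in S209A. With the pools exchanged it lay inside the wild-type range in the light pool and 1.53 above the nearest animal in the heavy pool. Cyp7a1, the rate-limiting enzyme of bile acid synthesis, was past the fold in the heavy pool, at log2 CPM 5.64, 5.25 and 4.79 in the wild type and 6.81 in S209A. After the exchange Cyp7a1 lay inside the wild-type range there and 1.38 above the nearest animal in the light pool. The pericentral hepatocyte list, with 17 of 20 genes measured, had 4 genes past the fold higher in the light pool, against 3.64% of all genes, and 4 with the pools exchanged.

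Among the genes furthest above the wild type in the heavy-over-light ratio, several had few light counts in S209A. Clasrp, which encodes a splicing-related protein, was at 15.2, 8.19 and 13.7 CPM in the wild-type light pools and 1.13 in S209A, from 6 counts. Its heavy level of 8.97 CPM lay within 2.58 to 11.1. Ino80, the ATPase of a chromatin remodelling complex, was at 16, 12.6 and 11.3 CPM in the wild-type light pools and 1.5 in S209A, from 8 counts, while its heavy level of 9.56 CPM lay within 2.21 to 9.61. Phf12, which encodes a corepressor subunit, was at 22.5, 14.7 and 14.4 CPM in the wild-type light pools and 2.25 in S209A. Kcnq1ot1, a nuclear antisense RNA of an imprinted region, was at 27.1, 9.45 and 8.26 CPM in the wild-type light pools and 1.5 in S209A. Kcnq1ot1 stayed past the fold lower with the pools exchanged, at -1.65, while Clasrp and Phf12 changed sign in the ratio, at -0.25 and -0.53. The major urinary protein genes were at the other end of the ratio, with 12 of 20 measured past the fold lower, against 5.43% of all genes. With the pools exchanged 7 of 20 were past the fold higher and the list's median lay 0.38 above the nearest animal. The urinary protein genes, like the 5S ribosomal RNA copies that also ranked among the furthest, have near-identical copies, so their single values are uncertain.

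Against wild-type animal 3 alone, whose files share the S209A header wording, 10.3% of genes were at least 2-fold higher in the S209A heavy pool and 11.3% lower. In the light pool the shares were 13.1% and 17.7%, and in the ratio 20.3% and 16.5%. These are larger than the shares against all 3 because the gene must pass only 1 animal. Levels of single genes also differed widely among the wild-type animals, and the cause was not tested. Cyp4a14, a PPARalpha target, was at 36.9, 2130 and 1040 CPM in the wild-type heavy pools and 1030 in S209A, so wild-type animal 1 stood apart. Per2, a clock gene, was at 9.59, 18.2 and 56.9 CPM in the wild-type heavy pools and 7.77 in S209A, so animal 3 stood apart.

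A comparison that does not depend on which tube is heavy asked for both S209A libraries to be at least 2-fold from each of the 6 wild-type libraries, and was added after seeing the data. It called 5 genes higher (0.0548%) and 24 lower (0.263%). Usp18, which encodes a deISGylase that limits interferon signalling, was higher, at 0.738, 0.848 and 2.64 CPM in the wild-type heavy pools and 8.52 in S209A. Its light level was 0.516, 1.26 and 3.05 CPM in the wild type and 8.63 in S209A. Rnf125, which encodes a ubiquitin ligase that acts on RIG-I, was at 4.06, 2.54 and 2.43 CPM in the wild-type heavy pools and 23.8 in S209A, and at 3.36, 1.47 and 7.24 CPM in the light pools against 17.6 in S209A. Arrdc3, Bin3 and Arpc5 were the other higher genes. Usp18 had a mean of 21 counts. Interferon genes were not measured as a list, and those described here were chosen after seeing values. Ifih1, which encodes the RNA sensor MDA5, was past the fold in the heavy pool but not in both, at 6.64, 5.51 and 5.91 CPM in the wild-type heavy pools and 18.1 in S209A. Its light level of 10.1 CPM was above the wild-type 7.74, 5.04 and 4.86.

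Ifnar1, a subunit of the type I interferon receptor, was lower in both pools, at 4.43, 8.48 and 6.02 CPM in the wild-type heavy pools and 1.79 in S209A, and at 17.6, 7.77 and 6.45 CPM in the light pools against 1.13. Tyk2, the kinase bound to that receptor, was at 5.53, 5.94 and 6.97 CPM in the wild-type heavy pools and 1.79 in S209A, and at 4.39, 7.14 and 6.11 CPM in the light pools against 1.88. Both rest on 6 to 12 counts in each S209A library. Mapk8ip3, which encodes a JNK scaffold and motor adaptor, was the only gene of the 29 with a mean of at least 50 counts. It was at 34.3, 24.8 and 20.4 CPM in the wild-type heavy pools and 8.52 in S209A, and at 29.4, 19.1 and 19.5 CPM in the light pools against 4.88. Ppp1r14b, which encodes a phosphatase inhibitor, had 0 counts in both S209A libraries and 8 to 38 in the wild-type libraries. H2-K2 had 0 heavy and 4 light counts in S209A and 19 to 54 in the wild type. H2-K2 has close relatives in the class I family, so its counts are uncertain.

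**Figure D5:**
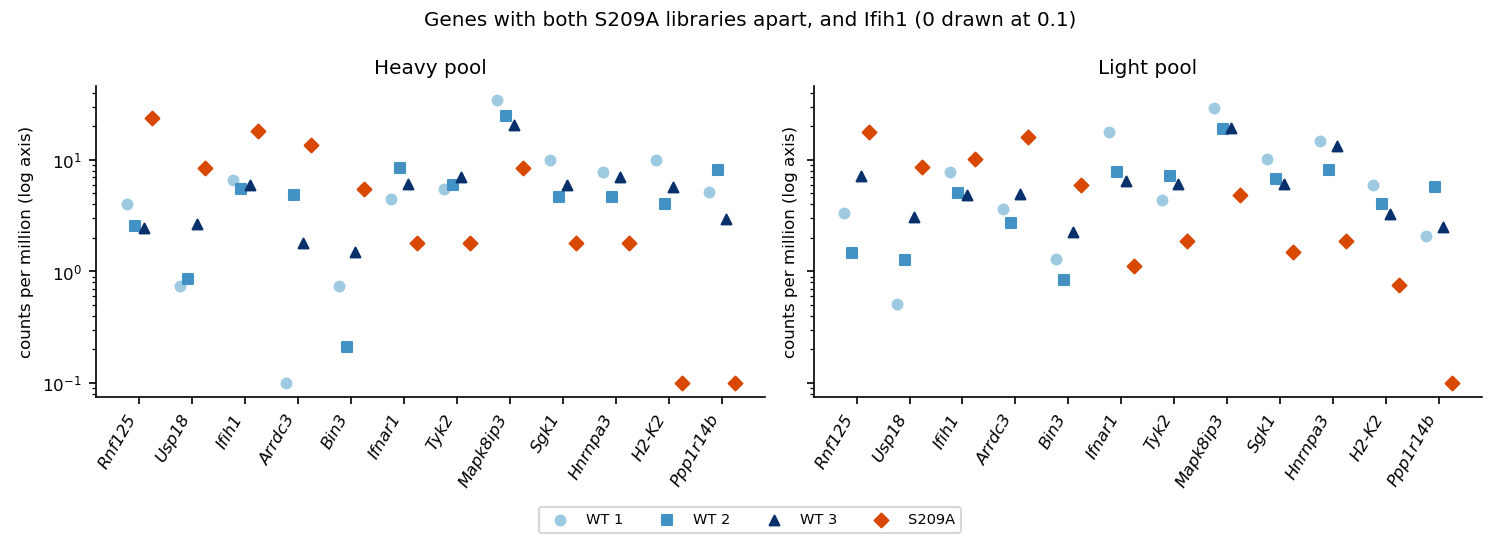
Genes with both S209A libraries apart from the wild type, and Ifih1, in CPM on a log axis with 0 drawn at 0.1, by pool and with 1 symbol per animal. Rnf125 and Usp18 lie above every wild-type point in both panels, and Mapk8ip3, Ifnar1 and Tyk2 lie below.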

How the data were processed

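RNA of heavy and light polysome pools was sequenced after a SMARTer stranded total RNA pico kit preparation from 10 ng, per the labels' protocols, which give 24 h of diet and an ERCC addition while another label gives a time of 0. The deposited tables hold raw counts per Entrez gene identifier as the authors made them. The tools named are StringTie, HISAT2 and Trimmomatic, with the build mm10, per the submitters' processing notes, and per the file headers the aligner was HISAT2 or Bowtie2, depending on the sample. The tool that counted the reads is not given in the sources used here. Names came from the RefSeq gene table (25275 of 27179 identifiers).

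Counts were scaled by TMM in edgeR 4.0.16 (R 4.3.3) over the 8 libraries on the kept genes, and log2 CPM used a prior count of 2. CPM printed are TMM-scaled. The ratio is heavy minus light log2 CPM within an animal. A list of at least 5 measured genes was called apart where its median, relative to all genes, lay at least 0.5 log2 from each wild-type animal in 1 direction. Named genes are the 10 furthest per direction and pool with a mean of at least 50 counts, leaving out predicted names and pseudogenes, up to 4 past the fold per list (or the 2 best counted), and a fixed set of eIF4E, metabolic and clock genes. Other names were chosen after seeing values. Members and lists were chosen with earlier results of these data known. edgeR and DESeq2 1.42.0 were run as alternatives, assuming the lone S209A animal varies like the others, and scripts were tested on simulated data. Heavy and light pools of the same number were taken as 1 animal, per the labels' numbering. A few genes are not reported here.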

Additional observations from a re-analysis of the deposited data

Results flagged for a closer look

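In 18 of 39 gene lists, the median heavy-over-light value of S209A, log2 and relative to all genes, had the opposite sign to all 3 wild-type animals. The same held for the log2 heavy-over-light value of 23 of 64 genes, which are the genes named in the text and the 20 furthest in the ratio. Many of these were picked for their values in these data. Over all 9131 genes, 1209 were positive in all 3 wild-type animals, and 752 of them (62.2%) were negative in S209A. Of 1481 that were negative in all 3, 890 (60.1%) were positive in S209A. These percentages are of genes with 1 sign in all 3 wild-type animals. The 39 lists and 64 genes also include items with mixed wild-type signs, so their counts have a different base. On that base the all-gene counts are 752 and 890 of 9131. The differences were not tested, since there is 1 S209A animal, and their cause was not tested. Among the lists, S209A was at -1 for heat shock chaperones, -0.58 for acute phase genes, -0.51 for peroxisomal and omega oxidation, -0.49 for respiratory chain subunits, -0.45 for secreted plasma proteins, -0.43 for proteasome subunits and -0.41 for Kupffer cell markers. It was at -0.37 for hepatocyte markers, -0.31 for mitochondrial ribosomal proteins, -0.31 for initiation factors, -0.18 for amino acid catabolism, -0.16 for periportal and -0.11 for pericentral hepatocyte markers, -0.14 for gluconeogenesis, -0.08 for cytosolic ribosomal proteins and -0.01 for glycolysis. All of these were positive in the wild type. Sinusoidal endothelium (0.22) and MNK, ERK, p38 and mTORC1 signalling (0.04) were negative in the wild type.

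Among the genes that were positive in the wild type, S209A was at -3.36 for Mup16, -2.18 for Saa1, -2.01 for Fgl1, -2.01 for Hspa1a, -1.91 for Eno1b, -1.67 for H2-K2, -1.51 for H2ac18, -1.17 for Cyp2a4 and -1.09 for Hspa8. It was at -0.85 for Lrg1, -0.7 for Orm1, -0.5 for Eif4ebp1, -0.17 for Cyp4a14, -0.04 for Cps1 and -0.01 for Arpc5. Among those that were negative in the wild type, S209A was at 2.75 for Tsc1, 2.66 for Clasrp, 2.54 for Phf12, 2.42 for Ino80, 1.77 for Arhgap23, 1.37 for Mknk1, 0.98 for Vegfa and 0.57 for Kcnq1ot1. Mup16, Eno1b, H2ac18, H2-K2, Hspa1a and Cyp2a4 have near-identical relatives, so their counts are uncertain.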

How the results depend on the processing

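The main counts of genes past the fold were 433 in the heavy pool, 1241 in the light pool, 1478 in the ratio and 29 in both pools. The same genes were not followed across settings, and depth limits the low ones. Requiring a mean of at least 50 counts gave 50, 309, 389 and 1, and keeping any gene with a count gave 943, 1872, 2434 and 51. A prior count of 10 gave 137, 546, 788 and 8, and a prior of 0.5 gave 49 in both pools. A fold of 1.5 gave 1109, 2548, 2584 and 104, and a fold of 4 gave 60, 232, 360 and 2. Animal 3 alone gave 1973, 2812, 3368 and 321. Leaving out 1 wild-type animal gave 825 to 1636, 1657 to 2579, 1999 to 3076 and 72 to 426, with the highest without animal 3 each time. Against animal 3 alone, the heavy, light and ratio counts were 332, 667 and 712 with a mean of at least 50 counts, 3773, 4703 and 5932 with any count, and 901, 1543 and 2107 with a prior of 10. They were 3936, 4985 and 5381 at a fold of 1.5 and 375, 673 and 1032 at a fold of 4. DESeq2 size factors and scaling to coding counts kept each count within 1.5 times, and so did restricting to nuclear protein-coding genes, which was chosen after seeing the data.

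Each heavy library is paired with the light library of its animal. Without that replicate block, over all 9 pairings of the wild-type pools, 785 genes were past the fold in the ratio. With the animal as replicate block, edgeR called 7 genes at an adjusted p under 0.05 (579 at an unadjusted p) and DESeq2 12 (514 unadjusted). Within pools, edgeR called 0 in the heavy pool (136 unadjusted) and 0 in the light pool (678 unadjusted), and DESeq2 called 14 (256 unadjusted) and 7 (727 unadjusted). These assume that the lone S209A animal varies like the others.

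With the S209A pools exchanged, 761, 571 and 955 genes were past the fold. Ratios of genes outside the 60 named gene results also turned sign, among them Hsph1 1.29, Bag3 1.03, Nfkbia 1.17 and Ccnd1 1.37. Dusp1 -2.58, Sqle -4.11 and Fdps -3.4 did so too. Within pools, so did Dusp6 in the heavy pool at 0.21 and Mup15 in the light pool at -1.76. Among the 60 gene and 21 list results followed across settings, these distances to the nearest wild-type animal turned sign, all in the ratio. They were Arhgap23 -0.74, Clasrp -0.25, Phf12 -0.53, Neb -2.04, Fgl1 0.19, Saa2 1.08, Hspa1b 2.67, Mup13 2.42, Mup15 3.48, Mup16 1.55, n-R5s143 3.02, n-R5s144 -3.01, n-R5s146 -3.12 and n-R5s149 -3.68, and the list medians of erythroid markers 1.86 and major urinary proteins 0.38. Of 21 list results apart from the wild type, 3 kept their call and 16 lost it, and of 60 named gene results 14 kept it and 32 lost it. Under the planned settings none turned sign, and the calls lost were 5 lists with any count kept, 7 lists with a mean of at least 50 counts, and 2 lists and 1 gene with a prior of 10. With a mean of at least 50 counts, 8 gene results and 1 list had too few counts to give a value.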
